A study of Mus musculus with 6 samples.

Results

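The 10 genes described here are mouse pluripotency factors and the paired let-7 regulators Lin28a and Lin28b: Pou5f1, Nanog, Sox2, Tfcp2l1, Esrrb, Utf1, Dppa5a, Tdgf1, Lin28a and Lin28b. They were taken by name from the 53801 genes with an Ensembl identifier in the deposited count tables. The cells were ciCPCs, cardiovascular progenitors induced from mouse fibroblasts by small molecules and expanded in culture. RNA was sequenced from 3 libraries at passage 3 and 3 libraries at passage 20. All 6 came from wild-type cells with a mixed C57BL/6 and 129J/SvE background, grown from colonies picked during cardiac reprogramming. Every library, at both passages, was from cells kept in ciCPC basal medium with BMP4, Activin A, CHIR99021 (an inhibitor of GSK3) and SU5402 (an inhibitor of FGF receptor signalling), so no group lacked these agents. The labels give no sex or age of the mice. They do not say whether the replicates were separate cultures or colonies, so the p-values below measure only the spread between these libraries, which may be technical.

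POU5F1 (also called OCT4), SOX2 and NANOG are the transcription factors at the core of the embryonic stem cell network, where they bind many of the same enhancers, including their own. TFCP2L1 and ESRRB belong to the naive part of that network, the state of the preimplantation epiblast. LIN28A and LIN28B are RNA-binding proteins that block the processing of let-7 precursors, and let-7 microRNAs in turn repress both Lin28 transcripts, so the pair forms a double-negative loop. Most of these genes are silenced as embryonic cells differentiate, whereas SOX2 is also used by neural progenitors and LIN28B by other embryonic tissues.

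Mature let-7 microRNAs share a seed, bases 2 to 8 from the 5′ end, that pairs with target sites in 3′ UTRs. All 9 mature sequences of the let-7 and miR-98 family in RefSeq (GRCm38.p6) have the same seed, GAGGUAG, shown in capitals in 3 of them because the sites in Lin28a and Lin28b are defined by it.
mmu-let-7a-5p: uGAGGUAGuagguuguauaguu
mmu-let-7g-5p: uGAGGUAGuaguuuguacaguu
mmu-miR-98-5p: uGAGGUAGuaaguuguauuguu
The match to that seed, CTACCTC, was searched on the transcript strand in the longest annotated 3′ UTR of each gene (GENCODE, GRCm38). Lin28a had 2 matches and Lin28b had 4, all on the minus strand of the genome. Each is printed 5′ to 3′ on the transcript strand with the match in capitals.
Lin28a site at chr4:134005189-134005211: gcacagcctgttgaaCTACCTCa
Lin28a site at chr4:134004551-134004573: gagatcgccacaaacCTACCTCa
Lin28b site at chr10:45381022-45381044: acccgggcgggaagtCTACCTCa
Lin28b site at chr10:45378648-45378670: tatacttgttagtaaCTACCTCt
Lin28b site at chr10:45378476-45378498: gtttacagcacatggCTACCTCc
Lin28b site at chr10:45377060-45377082: aaatgatggcaccgaCTACCTCt
Esrrb had 1 match, and the other 7 genes had none. Of the 13438 tested genes with an annotated 3′ UTR, 10.7% held at least 1 match. The libraries were not small-RNA libraries and mature let-7 was not measured.

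The composite element at which POU5F1 and SOX2 bind side by side was searched as CATTGTNATGCAAA on both strands in the 250 bases before the start of each gene. RefSeq promoters (GRCm38.p6) were found for 9 of the 10 genes, and none for Dppa5a. Among 32851 promoters of all genes, 2 held the composite (0.00609%), and both were the overlapping entries for the annotated starts of Nanog. The Nanog window is shown, with the element in capitals, because Nanog and Pou5f1 both differed between the passages. It lies at chr6:122707239-122707488 on the plus strand. The element is on the minus strand, at positions -75 to -62 from the start, so the capitals read as its reverse complement.
Nanog promoter: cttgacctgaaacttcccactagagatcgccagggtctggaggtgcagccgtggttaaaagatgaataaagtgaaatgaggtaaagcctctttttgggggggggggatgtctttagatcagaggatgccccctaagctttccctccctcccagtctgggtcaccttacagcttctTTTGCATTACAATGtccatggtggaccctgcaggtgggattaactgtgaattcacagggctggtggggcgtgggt
The octamer part alone, ATGCAAA, which overlaps the composite, was in 4.12% of all promoters and in those of Nanog and Sox2. The Sox part alone, CATTGT, was in 10.7% of all promoters and in those of Lin28a, Nanog and, at an internal start, Pou5f1. These are letter matches in a window and do not show binding.

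The libraries held 11387738 to 17721788 counts on genes, and the 3 passage 3 libraries were the deeper ones. Levels are therefore given as CPM, the usual measure of a gene's counts relative to its library's total, with totals scaled by the trimmed mean of M-values (TMM). The TMM factors were 1.12 to 1.13 at passage 3 and 0.873 to 0.917 at passage 20. At passage 20, 5604 genes were higher and 5641 lower among 15143 (edgeR's quasi-likelihood test, Benjamini-Hochberg adjusted p under 0.05). The passages thus differed at 74.3% of genes, 37% higher and 37.3% lower, and 77.5% of genes had no overlap between the 3 CPM values of each passage. These shares are the background for every count below. With library sizes alone in place of TMM, 29.9% of the calls were higher, against 49.8%, and the median over all genes was -0.34 on the log2 scale, against -0.01. Replicate 3 of passage 20 stood apart from its group. The chi-square per degree of freedom between its counts and those of replicates 1 and 2 was 10.6 and 8.72, against 1.75 to 2.63 for the other 4 pairs within a passage. Results are therefore also given without it.

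The labelled cell type was checked against 13 cardiac progenitor markers, and all 13 had counts. Nkx2-5, a defining cardiac factor, was at 1.15 CPM at passage 3 and 5.24 at passage 20, and Mesp1, which marks early cardiac mesoderm, was at 0.146 and 2.23. These were among 7 of the 13 that were higher at passage 20, and 6 were lower, including the second heart field factor Isl1, at 63.2 and 7.45 CPM. Mesp1 had 1, 2 and 5 counts at passage 3 and passed the filter on low counts, given below, through its passage 20 libraries alone.

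At passage 20, 8 of the 10 genes were higher than at passage 3, 1 was lower (Dppa5a) and 1 did not pass the test (Esrrb), set against 37% of all tested genes higher and 37.3% lower. The median log2 fold change over the 10 genes was 1.21, and that over all tested genes was -0.01. The CPM values of the passages did not overlap for 9 of the 10 genes, against 77.5% of all genes. All 10 passed the filter on low counts, which asked for about 0.733 CPM, before TMM scaling, in at least 3 libraries. Dppa5a passed through its 3 passage 3 libraries alone, Tdgf1 was over that level in 2 libraries at passage 3 and 3 at passage 20, and the other 8 genes were over it in all 6 libraries. The counts were low, from 4 to 279 in a library, so counting error weighs on every value. Without replicate 3 of passage 20, the same 8 genes passed as higher and Dppa5a as lower, and the fold changes of those not given singly below were 3.14 for Nanog, 1.44 for Lin28b, 9.27 for Tdgf1, 2.29 for Utf1 and 5.20 lower for Dppa5a.

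**Figure D1:**
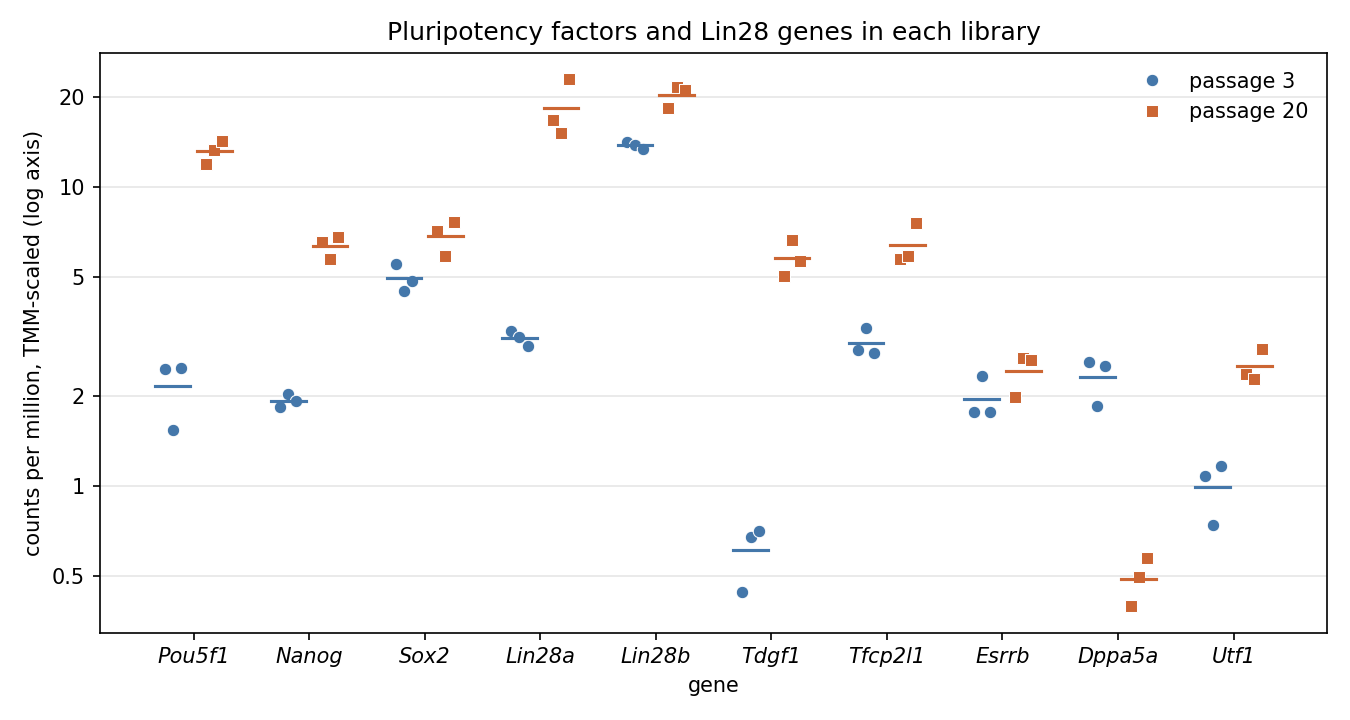
TMM-scaled CPM (log axis) of the 10 genes in each of the 3 libraries at passage 3 (circles) and the 3 at passage 20 (squares), with the mean of each group as a line. Apart from Esrrb, each gene has separate groups, and Dppa5a alone lies lower at passage 20.

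Pou5f1 (chr17:35506018-35510772, plus strand), the POU-domain factor without which the pluripotent state is lost, had 39, 25 and 49 counts in passage 3 replicates 1, 2 and 3. At passage 20 it had 121, 134 and 174 counts. Every passage 20 library was thus above every passage 3 library even before scaling, although the passage 20 libraries were shallower. The level rose from 2.16 ± 0.539 CPM (SD, n = 3) to 13.2 ± 1.17 CPM (SD, n = 3). That is a 6.06-fold difference, a log2 fold change of 2.60 (SE 0.174, edgeR adjusted p = 1.68e-07), and it was 5.72-fold without replicate 3 of passage 20. In bulk RNA a difference of this kind can come from more cells that express the gene or from more RNA per cell, and these cannot be told apart.

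Nanog (chr6:122707489-122714633, plus strand), the homeodomain factor that stabilises the pluripotent state, had 29, 33 and 38 counts at passage 3. It had 66, 58 and 83 counts at passage 20, again with no overlap. The level rose 3.30-fold, from 1.93 ± 0.0980 to 6.37 ± 0.546 CPM (SD, n = 3 each; log2 1.72, SE 0.163, edgeR adjusted p = 2.78e-06). The longest Nanog transcript shares a stretch of sequence of at least 150 bases at 90% identity or more with transcripts of at least 346 other genes. That number is a lower bound, because the search kept a limited number of matching transcripts. Among them is the neighbouring gene Slc2a3, a glucose transporter (93.9% identity over 179 bases), which had 1170 to 2181 counts at passage 3 and 17647 to 19996 at passage 20. The sources used here do not say how reads matching several genes were counted, so the Nanog count is uncertain to that extent.

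Sox2 (chr3:34650405-34652461, plus strand), the HMG-box partner of POU5F1, had 87, 73 and 96 counts at passage 3 and 72, 59 and 93 at passage 20. The raw counts overlapped, and after scaling for depth the passages separated, at 4.95 ± 0.515 and 6.88 ± 0.915 CPM (SD, n = 3 each). The 1.40-fold difference passed the test (log2 0.48, SE 0.153, edgeR adjusted p = 0.0142), but it depended on the libraries and on the scaling. It was lost without passage 3 replicate 2 (log2 0.41, edgeR adjusted p = 0.0659), without passage 3 replicate 3 (log2 0.45, edgeR adjusted p = 0.0540) and with library sizes alone (log2 0.15, edgeR adjusted p = 0.396). Without replicate 3 of passage 20 it was 1.30-fold (edgeR adjusted p = 0.0380). The noncoding host transcript Sox2ot, which surrounds Sox2, had 7 counts in all 6 libraries together.

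Tfcp2l1 (chr1:118627945-118685168, plus strand), a factor of the naive network that acts downstream of LIF and STAT3 in embryonic stem cells, had 45, 55 and 55 counts at passage 3. It had 58, 59 and 92 counts at passage 20, with replicate 3 the highest. The level rose 2.14-fold, from 3.01 ± 0.332 to 6.39 ± 1.02 CPM (SD, n = 3 each; log2 1.10, SE 0.172, edgeR adjusted p = 0.000146), and 1.92-fold without that replicate.

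Esrrb (chr12:86361117-86521628, plus strand), an orphan nuclear receptor of the same naive network, had 28, 38 and 35 counts at passage 3 and 20, 27 and 32 at passage 20. Its levels overlapped, at 1.96 ± 0.329 and 2.43 ± 0.392 CPM (SD, n = 3 each). The log2 difference was 0.32 (SE 0.223, edgeR adjusted p = 0.212) and did not pass the test. The ratio of pooled scaled counts was 1.25, with a 95% counting interval from 0.922 to 1.70. With library sizes alone the estimate changed sign, to a log2 fold change of -0.0074 (edgeR adjusted p = 0.978).

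Utf1 (chr7:139943789-139945112, plus strand), a chromatin-bound protein found in undifferentiated embryonic cells, had 17, 12 and 23 counts at passage 3 and 24, 23 and 35 at passage 20. Raw counts met at 23, and the scaled levels did not overlap. The level rose 2.51-fold, from 0.993 ± 0.224 to 2.51 ± 0.318 CPM (SD, n = 3 each; log2 1.33, SE 0.249, edgeR adjusted p = 0.000547).

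Dppa5a (chr9:78367052-78368177, minus strand), which encodes a small KH-domain RNA-binding protein of embryonic stem and germ cells, went the other way. It had 41, 30 and 50 counts at passage 3 and 4, 5 and 7 at passage 20, so every passage 20 library was far below every passage 3 library. The level fell 4.65-fold, from 2.32 ± 0.414 to 0.490 ± 0.0900 CPM (SD, n = 3 each; log2 -2.22, SE 0.305, edgeR adjusted p = 5.43e-05). With 16 counts in all at passage 20, the 95% counting interval of the pooled ratio ran from 2.79 to 8.52. Part of the Dppa5a transcript is 95.9% identical over 417 bases to a transcript of Pigp, and 8 pseudogenes with similar stretches were at 0 counts in all libraries. Pigp had 408, 421 and 462 counts at passage 3 and 193, 191 and 236 at passage 20, a fall of 1.30-fold after scaling (log2 -0.38, edgeR adjusted p = 0.00147), so the count of Dppa5a is uncertain where reads match both.

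Tdgf1 (chr9:110939603-110946158, minus strand) encodes Cripto, the membrane-anchored co-receptor that lets Nodal signal through Activin receptors. It had 7, 11 and 14 counts at passage 3 and 51, 67 and 69 at passage 20. The groups were far apart, and this was the largest fold change of the 10 genes. The level rose 9.27-fold, from 0.610 ± 0.145 to 5.79 ± 0.814 CPM (SD, n = 3 each; log2 3.21, SE 0.233, edgeR adjusted p = 3.22e-07). The 95% counting interval of the pooled ratio was 6.41 to 14.1, since the passage 3 libraries held 32 counts in all. The processed pseudogenes Tdgf1-ps1 and Tdgf1-ps2, close copies of Tdgf1, had at most 4 counts in a library.

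Lin28a (chr4:134003330-134018841, minus strand), the cytoplasmic LIN28 protein that recruits uridylating enzymes to let-7 precursors, had 52, 51 and 58 counts at passage 3. At passage 20 it had 170, 153 and 279, with replicate 3 well above the other pair. The level rose 5.91-fold, from 3.12 ± 0.182 to 18.3 ± 4.07 CPM (SD, n = 3 each; log2 2.56, SE 0.174, edgeR adjusted p = 1.88e-07), and 5.09-fold without replicate 3. Within passage 20 the Lin28a counts spread more than counting error gives, with a chi-square of 20.2 on 2 degrees of freedom, whereas no other gene of the 10 exceeded 4.46 in either passage. Both 3′ UTR sites printed above lie in this transcript.

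Lin28b (chr10:45376620-45486395, minus strand), the paralogue that blocks earlier steps of let-7 processing in the nucleus, had 223, 225 and 265 counts at passage 3 and 186, 218 and 257 at passage 20. Raw counts overlapped, and the scaled levels were separate, at 13.8 ± 0.370 and 20.4 ± 1.75 CPM (SD, n = 3 each). The level rose 1.48-fold (log2 0.57, SE 0.0949, edgeR adjusted p = 0.000241), which shrank to a log2 fold change of 0.24 (edgeR adjusted p = 0.0498) with library sizes alone. Per kilobase of exons, Lin28b was above Lin28a in all libraries of passage 3 (1.52 against 0.781 CPM per kilobase on average) and below it in all libraries of passage 20 (2.25 against 4.59).

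**Figure D2:**
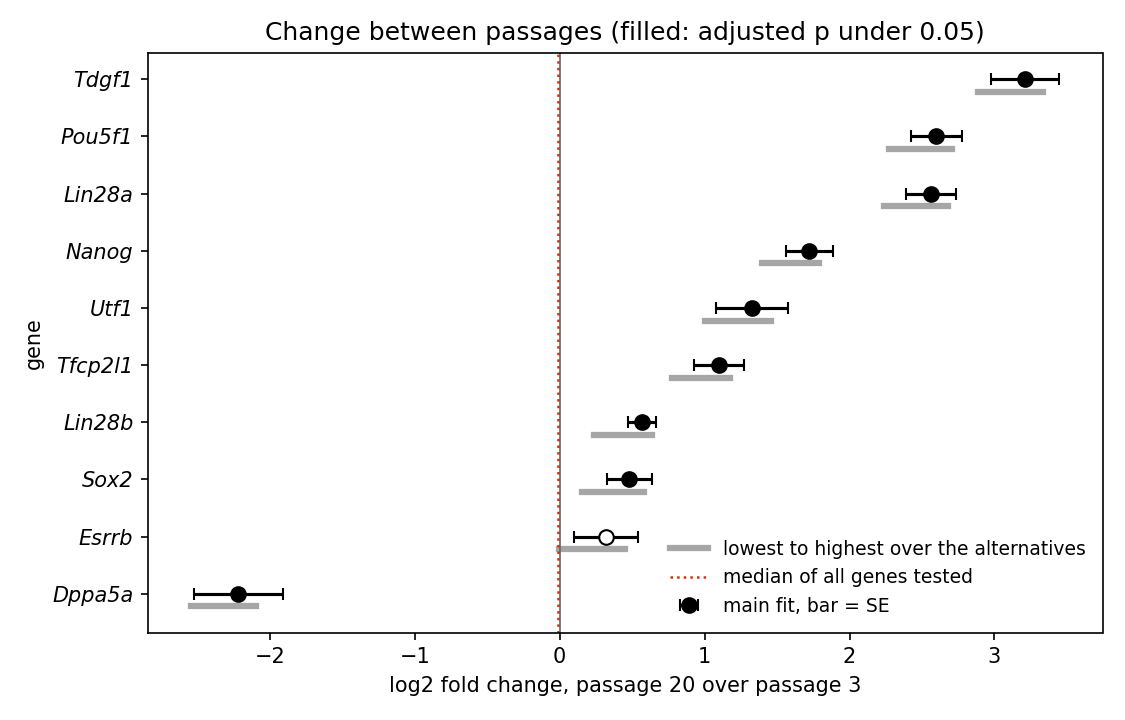
Log2 fold change of each gene, passage 20 over passage 3, with its standard error (points and bars; filled where the edgeR adjusted p was under 0.05), and the range over 15 alternative settings (grey). Tdgf1, Pou5f1 and Lin28a lead, Esrrb is open, Dppa5a lies at -2.22, and the dotted line is the median of all tested genes, -0.01.

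Levels of different genes were compared as TMM-scaled CPM per kilobase of exons. On that scale Dppa5a had the highest level of the 10 genes at passage 3, 3.75 ± 0.669, followed by Sox2 at 2.41 ± 0.250 and Lin28b at 1.52 ± 0.0408 (SD, n = 3 each), and the ranges of these neighbours did not overlap. Pou5f1 (0.962 ± 0.240), Nanog (0.861 ± 0.0437), Utf1 (0.809 ± 0.183) and Lin28a (0.781 ± 0.0455) came next, and each overlapped its neighbour in that order. Esrrb (0.324 ± 0.0543) and Tfcp2l1 (0.319 ± 0.0352) overlapped each other, and Tdgf1 was lowest at 0.232 ± 0.0552. At passage 20 Pou5f1 was highest on the length-scaled measure, at 5.87 ± 0.520, and overlapped Lin28a at 4.59 ± 1.02. Sox2 (3.34 ± 0.445) and Nanog (2.84 ± 0.243) followed and overlapped, as did Lin28b (2.25 ± 0.193), Tdgf1 (2.21 ± 0.310) and Utf1 (2.05 ± 0.260). Dppa5a (0.791 ± 0.145) overlapped Tfcp2l1 (0.677 ± 0.108), and Esrrb was lowest at 0.402 ± 0.0649. Dppa5a thus went from rank 1 to rank 8, Pou5f1 from 4 to 1 and Tdgf1 from 10 to 6. With the longest transcript as the length, Lin28b passed Sox2 at passage 3 and ranked 3 at passage 20, while Dppa5a and Pou5f1 kept rank 1 at their passages. The levels lay low among all genes: the median length-scaled level of all tested genes was 5.35 at passage 3 and 5.13 at passage 20, and Pou5f1 at passage 20 was the only value of the 10 genes above it.

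**Figure D3:**
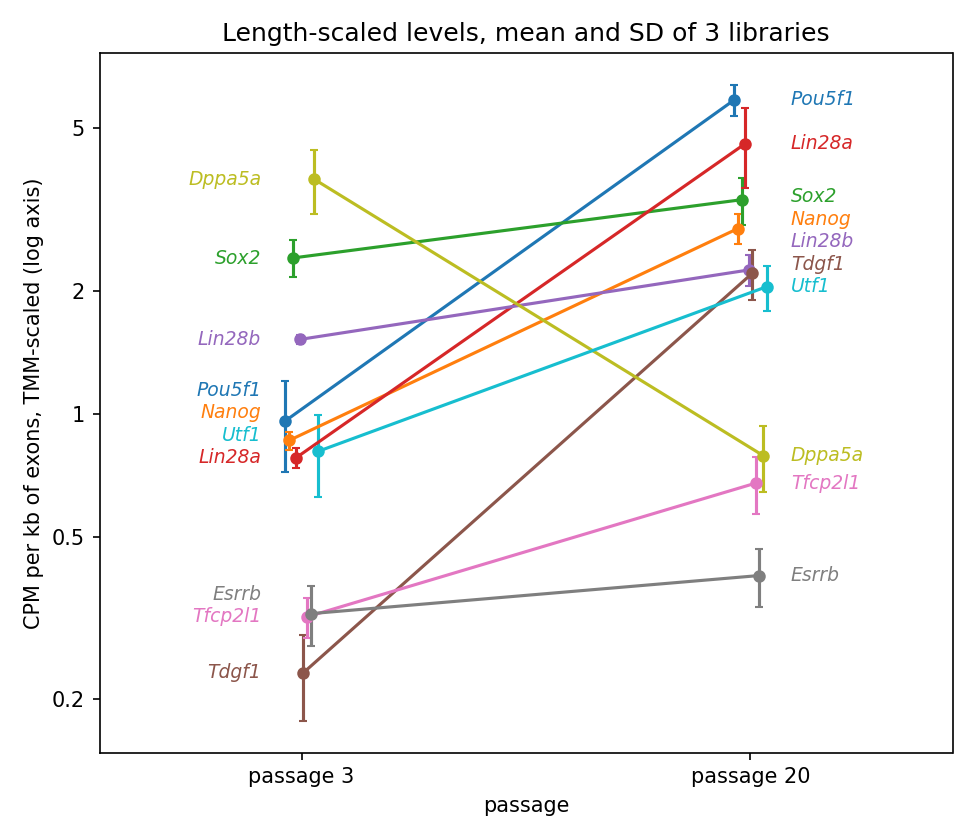
CPM per kilobase of exons (log axis), mean and SD of 3 libraries at each passage, for the 10 genes. Dppa5a falls from 3.75 to 0.791 while Pou5f1 rises from 0.962 to 5.87 and Tdgf1 from 0.232 to 2.21.

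The 8 lists below hold genes of the pathways in which these factors act. Without replicate 3 of passage 20 the calls over their distinct genes went from 58 higher and 40 lower to 59 and 46, and with library sizes alone they were 40 higher and 57 lower. The naive pluripotency network, a list of 26 further genes, had 18 tested, of which 13 were higher, 2 lower and 3 did not pass, with a median log2 fold change of 1.11. Stat3, the transcription factor through which LIF acts, rose from 158 ± 1.67 to 397 ± 5.10 CPM (SD, n = 3 each; 2.50-fold, edgeR adjusted p = 1.17e-09). Il6st, which encodes the gp130 chain of the LIF receptor, rose 2.45-fold from 279 ± 8.19 CPM (edgeR adjusted p = 2.95e-09). Klf4, a reprogramming factor, rose 2.94-fold to 49.6 ± 4.08 CPM (edgeR adjusted p = 2.76e-08). Tbx3, a T-box factor used in embryonic stem cells and in heart development alike, fell 2.88-fold, from 203 ± 2.33 to 70.1 ± 10.9 CPM (edgeR adjusted p = 2.12e-07). The other gene that fell, Zfx, was lower by 0.17 on the log2 scale (log2 -0.17, edgeR adjusted p = 0.0268). The count of 2 lower genes was 1 without passage 3 replicate 3, without passage 20 replicate 1 and without passage 20 replicate 2. At the lowest levels the genes of this list went both ways. Genes named from here to the end of this paragraph were chosen after their values were seen. Prdm14 had 5, 5 and 5 counts at passage 3 and 16, 22 and 22 at passage 20. Dnmt3l, a cofactor of the DNA methyltransferases, had 0, 2 and 1 counts and then 35, 37 and 43, a pooled ratio of 61.4 with a 95% counting interval from 20.5 to 302. Prdm14 and Dnmt3l passed the filter on low counts through their passage 20 libraries alone. Nr5a2 (3, 9 and 14 counts, then 17, 18 and 39) and Zscan10 (8, 5 and 13, then 23, 26 and 35) would also have failed it without their passage 20 libraries. Only passage 20 levels thus brought these genes into the 13 higher genes and the median of this list. With no filter on low counts, 14 genes of the list were higher and 4 lower. Nr0b1, an orphan receptor of the naive network, was not tested and went from 9, 12 and 10 counts to 1, 0 and 0 (pooled ratio 19.3 lower, interval 3.22 to 788). Zfp42, the standard marker Rex1, also untested, had 3, 7 and 8 counts and then 0, 0 and 2. Fgf4 had 0 counts at passage 3 and 4, 2 and 8 at passage 20, at least 7.48-fold higher against a floor of 3 counts over the passage 3 group.

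The primed epiblast list, genes of the state after implantation, was split. Of 18 tested genes, 9 were higher, 8 lower and 1 did not pass, with a median log2 fold change of 0.19. Cdh1 (E-cadherin) rose 4.93-fold, from 4.87 ± 0.256 to 24.0 ± 1.87 CPM (SD, n = 3 each; edgeR adjusted p = 1.18e-08). The de novo DNA methyltransferase Dnmt3a fell 1.83-fold, from 466 ± 12.6 to 255 ± 9.92 CPM (edgeR adjusted p = 4.79e-08). The SRY-related factor Sox11 fell 2.29-fold to 105 ± 9.31 CPM (edgeR adjusted p = 7.28e-08).

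The Nodal and Cripto pathway, in which the Tdgf1 product acts, had 15 genes tested, 8 higher, 5 lower and 2 not passing, with a median log2 fold change of 0.47. Lefty2, a secreted Nodal antagonist and itself a target of the pathway, rose 3.71-fold, from 4.09 ± 0.129 to 15.2 ± 2.50 CPM (SD, n = 3 each; edgeR adjusted p = 5.01e-07). Skil, a SMAD corepressor, rose 1.72-fold (edgeR adjusted p = 7.86e-08), and the type I receptor Acvr1b rose 1.72-fold (edgeR adjusted p = 4.96e-06). Fst, the Activin-binding antagonist follistatin, fell 1.90-fold to 29.8 ± 2.68 CPM (edgeR adjusted p = 8.54e-07). The ligand Nodal, named after its values were seen, had 198, 196 and 238 counts at passage 3 and 47, 44 and 137 at passage 20. Its fall, from 12.2 ± 0.285 to 6.76 ± 3.90 CPM (SD, n = 3 each; 1.76-fold, edgeR adjusted p = 0.0431), was uneven, with replicate 3 of passage 20 well above the other pair.

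Genes that act with LIN28 or process microRNAs had 19 tested, with 8 higher, 7 lower and 4 not passing, but 3 higher and 11 lower with library sizes alone. Their median log2 fold change was -0.01. Trim71, an E3 ligase and let-7 target of early embryos, rose 2.33-fold, from 11.5 ± 0.819 to 26.7 ± 2.77 CPM (SD, n = 3 each; edgeR adjusted p = 1.23e-06). Among the core processing genes, Dicer1, which cuts precursors, fell 2.06-fold from 162 ± 2.27 CPM (edgeR adjusted p = 4.79e-08), and Dgcr8, the partner of Drosha, fell 2.49-fold from 49.2 ± 2.23 CPM (edgeR adjusted p = 6.92e-07). Xpo5, which exports precursors from the nucleus, fell 2.04-fold from 96.9 ± 4.54 CPM (edgeR adjusted p = 1.04e-06). Other genes of this list, named after their values were seen, did not fall. Drosha did not pass (log2 -0.04, edgeR adjusted p = 0.520). Tarbp2 (log2 0.45, edgeR adjusted p = 0.000310) and Ago2 (log2 0.51, edgeR adjusted p = 2.20e-06) were among the 8 that were higher.

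Known let-7 targets, a list of 34 genes that includes Lin28a and Lin28b, had 33 tested, with 17 higher, 9 lower and 7 not passing, but 11 higher and 16 lower with library sizes alone. The median log2 fold change was 0.33. Hmga1, a chromatin architectural protein, rose 2.83-fold from 73.8 ± 2.28 CPM (SD, n = 3; edgeR adjusted p = 1.41e-09), the fibrillar collagen Col3a1 rose 2.55-fold (edgeR adjusted p = 1.08e-08) and the insulin receptor Insr rose 2.15-fold (edgeR adjusted p = 3.55e-08). Dicer1, itself on this list, fell as above. Hmga2, a textbook let-7 target with 4 seed matches in its 3′ UTR, named after its values were seen, fell 1.27-fold (edgeR adjusted p = 0.00208). At least 1 seed match was present in 23 of the 33 tested targets, against 10.7% of tested genes. Because the list is of known targets, that share describes the list and is not a result about the passages. Over all tested genes the median log2 fold change was -0.0045 with no match, -0.055 with 1 match and -0.081 with 2 or more, and the median 3′ UTR was longer in that order, at 1104, 2208 and 3637 bases.

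The let-7 loci themselves gave little signal. Of 15 matched hairpin and host genes 9 had 0 counts in every library, and Mirlet7a-1, Mirlet7a-2 and Mirlet7g had at most 2 counts in any library. Among the 3 tested host genes, 0 were higher (also 0 at an unadjusted p under 0.05, and 0 by DESeq2 and limma-voom) and 2 were lower. Wdr82, the host of Mirlet7g, fell from 214 ± 2.79 to 166 ± 13.3 CPM (SD, n = 3 each; edgeR adjusted p = 0.000211). Mir99ahg, the host of Mirlet7c-1, fell from 7.18 ± 0.993 to 4.21 ± 0.553 CPM (edgeR adjusted p = 0.00148). Huwe1, the host of Mirlet7f-2 and Mir98, was at 647 ± 14.0 and 633 ± 34.6 CPM and did not pass (edgeR adjusted p = 0.619).

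Relatives of the 10 genes were mixed: of 13 tested, 5 were higher, 4 lower and 4 did not pass, but 2 higher and 7 lower with library sizes alone, and the median log2 fold change was 0.14. Pou3f1, a POU factor of the primed epiblast, had 3, 6 and 13 counts at passage 3 and 26, 26 and 30 at passage 20 (5.90-fold higher, edgeR adjusted p = 3.56e-05), and it passed the filter on low counts through its passage 20 libraries. Grhl1 and Tfcp2, from the family of Tfcp2l1, fell 2.45-fold (edgeR adjusted p = 3.61e-05) and 1.61-fold (edgeR adjusted p = 5.60e-05).

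**Figure D4:**
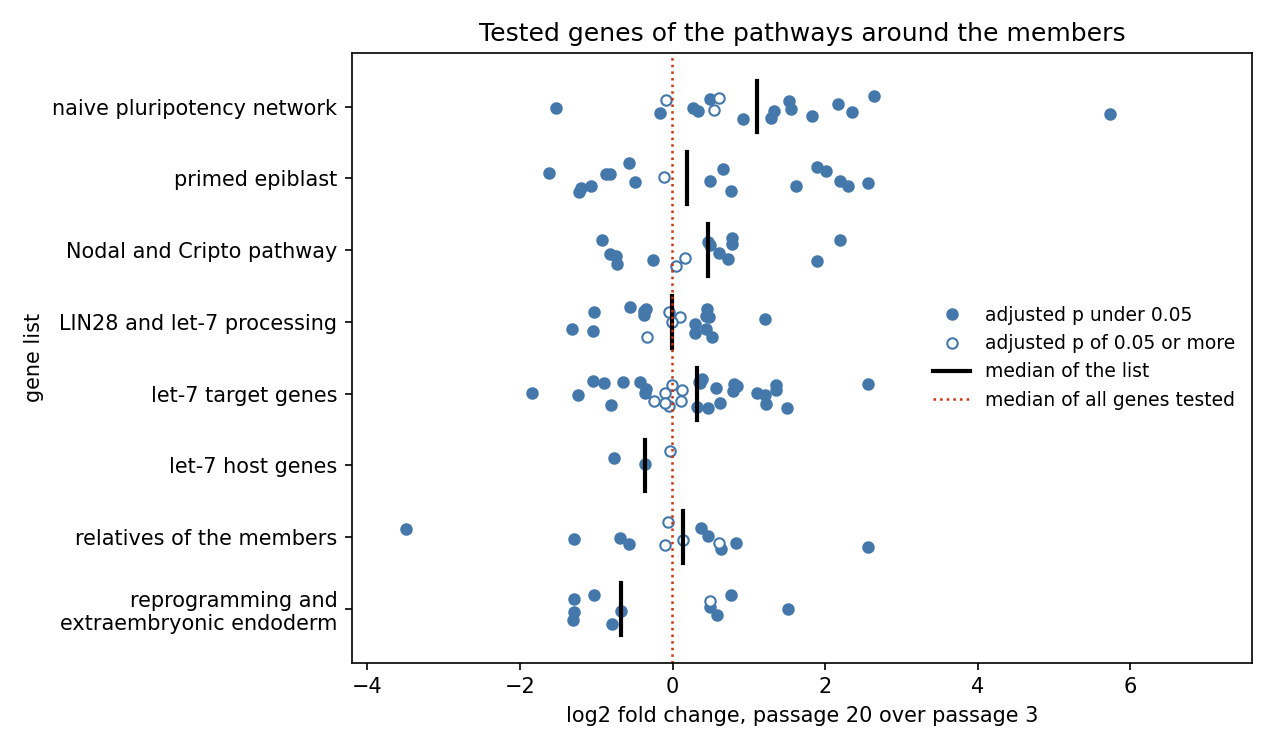
Log2 fold change of every tested gene in 8 lists around the 10 genes, passage 20 over passage 3 (filled: edgeR adjusted p under 0.05), with the median of each list as a black line and that of all tested genes dotted. The naive network has its median at 1.11, while the LIN28 and let-7 processing list sits at -0.01 with genes on both sides.

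Markers of other cell types moved as well, and their part in the results above was not tested. Embryonic stem cell markers, 7 of which are among the 10 genes, summed to 16.7 to 18.8 CPM at passage 3 and 36.8 to 42.6 at passage 20, and all 11 had counts. Of the 9 tested, 5 were higher, 2 lower and 2 did not pass, and all 5 that were higher are among the 10 genes. Of the other 4 markers 2 were tested and neither passed as higher. Before scaling for depth, Tdh had 68 counts at passage 3 and 20 at passage 20, and Fbxo15 46 and 27. Zfp42 had 18 and 2, and Dppa4 14 and 4. After scaling, Tdh was lower (log2 -1.07, edgeR adjusted p = 0.0297) and Fbxo15 did not pass (log2 -0.08, edgeR adjusted p = 0.859). For the untested Zfp42 and Dppa4 the pooled scaled ratios, passage 20 over passage 3, were 0.178 and 0.458. Their counting intervals ran from 0.02 to 0.744 and from 0.11 to 1.46, so that of Dppa4 spanned 1. Genes of reprogramming intermediates and extraembryonic endoderm had 11 tested, 4 higher and 6 lower, with a median log2 fold change of -0.68. Pdgfra fell 2.45-fold (edgeR adjusted p = 1.64e-09), Dab2 2.46-fold (edgeR adjusted p = 1.00e-08) and Sall1 2.45-fold (edgeR adjusted p = 2.43e-07), while the basement membrane collagen Col4a1 rose 2.85-fold (edgeR adjusted p = 1.42e-08). The rest of these calls, named after their values were seen, also went both ways. Gata4 (log2 0.77), Gata6 (log2 0.59) and Sall4 (log2 0.50) were higher, and Lama1 (log2 -0.68), Cubn (log2 -1.03) and Sox17 (log2 -0.79) were lower. Fibroblast markers, led by collagens, summed to 13800 to 14537 CPM at passage 3 and 28498 to 33797 at passage 20, with 10 of 11 detected and S100a4 at 0. Detected here means any count in any of the 6 libraries. Of the 10 fibroblast markers tested, 7 were higher and 3 lower: Thy1 fell 2.30-fold, Pdgfrb 1.60-fold and Twist2 1.61-fold. Germ cell markers summed to 37.8 to 39.7 and 34.7 to 39.5 CPM, with 11 of 12 detected and Mael at 0. Much of that sum was Kit (8.38 and 14.3 CPM) and Rhox5 (18.7 and 10.6 CPM), and Nanos2 was detected by 1 count. Only 6 germ cell markers passed the filter on low counts, with 2 higher, 2 lower and 2 not passing the test. Neural progenitor markers, which include Sox2, summed to 250 to 265 and 283 to 370 CPM, with 11 of 12 detected. They had 6 tested, 3 higher and 3 lower. Trophoblast markers summed to 155 to 168 and 133 to 159 CPM, with 8 of 10 detected and Prl3d1 and Tpbpa at 0. Their calls did not follow that sum: among 6 tested, 4 were higher, 1 lower and 1 did not pass, with a median log2 fold change of 0.99. Cardiac progenitor markers summed to 1007 to 1038 and 924 to 1047 CPM, with 7 higher and 6 lower. Cardiomyocyte markers summed to 5.58 to 6.53 and 7.46 to 7.73 CPM, with Myl2 at 0, and of 4 tested 2 were higher, 1 lower and 1 did not pass. One of the higher genes, Myh7, passed the filter on low counts through its passage 20 libraries alone. Endothelial markers summed to 101 to 117 and 81.0 to 89.6 CPM, with Emcn at 0, and smooth muscle markers to 892 to 953 and 928 to 954 CPM. The endothelial list had 5 tested, 1 higher, 3 lower and 1 not passing (median log2 fold change -0.42). The smooth muscle list had 6 tested, 2 higher, 3 lower and 1 not passing (median log2 fold change -0.43). Most of the smooth muscle sum was Acta2, at 796 and 788 CPM.

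The genes whose log2 CPM ran most like each member over the 6 libraries were named by Pearson's r. The passages form separate groups of 3 libraries, so r here mostly measures a shared step between them and is given as a description only. For Pou5f1 they were Mecom, Cbs and Dennd2c, and 172 genes had an r over 0.99 with it. For Nanog they were Ctsh, Hmga1b and Xpo6, among 913 genes over that value, and for Tdgf1 they were Kif3c, Slc29a2 and Jph1, among 719. Lin28a was closest to Nfkbiz, Tex261 and Creb5, and genes close to Dppa5a included Dnajc24 and Hoxb3. Sox2 had 2 genes over 0.99, 2410003L11Rik and Loxl3, followed by Itprid2. Lin28b was closest to Mcm3, Arid3b and Tsr3, Tfcp2l1 to Mtfr1, Aimp2 and Unc119b, and Utf1 to Selenbp2, Stk10 and Gm7993.

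Tested genes next to the members along the chromosome moved in both directions. Slc2a3, 13.2 kb from Nanog, rose with a log2 fold change of 4.20 (edgeR adjusted p = 4.08e-08), whereas Dppa3, 77.2 kb on the other side, did not pass (log2 0.60, edgeR adjusted p = 0.121). H2-Q10, 31.5 kb from Pou5f1, rose from 0.151 ± 0.0779 to 9.92 ± 2.55 CPM (SD, n = 3 each; edgeR adjusted p = 5.94e-08), and Tcf19, 1.96 kb on the other side, did not pass (log2 -0.19, edgeR adjusted p = 0.0579). Beside Lin28a, Dhdds at 2.41 kb fell (log2 -0.31, edgeR adjusted p = 0.0118) and Crybg2 at 42.0 kb on the other side rose (log2 1.55, edgeR adjusted p = 0.000462). Beside Lin28b, Bves at 4.14 kb fell (log2 -0.77, edgeR adjusted p = 1.21e-05) and Hace1 rose (log2 0.39, edgeR adjusted p = 0.000427). Both neighbours of Tdgf1 rose, Als2cl by a log2 fold change of 1.51 (edgeR adjusted p = 4.15e-05) and Ccrl2 by 1.66 (edgeR adjusted p = 0.00445). H2-Q10, Crybg2 and Ccrl2 passed the filter on low counts through their passage 20 libraries alone.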

How the data were processed

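Total RNA was sequenced in 6 libraries of ciCPCs, 3 at passage 3 and 3 at passage 20. The authors deposited raw counts per Ensembl gene, 1 table per library. HISAT2 2.0.5, SAMtools, HTSeq and DESeq2 and the build GRCm38 are named in the submitters' processing notes; the sources used here do not give their settings, the annotation release or any strand setting. Symbols were matched for 53620 of 53801 identifiers. Genes passing filterByExpr (15143) were tested with edgeR 4.0.16 (limma 3.58.1, R 4.3.3): TMM scaling, robust quasi-likelihood test, Benjamini-Hochberg adjustment over all genes tested, threshold 0.05, no covariate. The procedure was checked on simulated data. Counting intervals are exact 95% intervals of a ratio of pooled counts and cover counting error only. Likeness was measured on log2 CPM with a prior count of 2. Lengths and 3′ UTRs came from GENCODE (GRCm38). The members and lists were chosen with earlier results of these data known. Named were all 10 members, the 4 tested genes with the smallest adjusted p in every list (all of them in a list of at most 5), and the 3 genes most like each member that passed the test with at least 1 CPM in the higher group; some genes that this rule names are not reported here. Alternatives were RLE, upper-quartile or no scaling, DESeq2 1.42.0, limma-voom, other filters, a threshold of 0.01, each library left out and a replicate block.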

Additional observations from a re-analysis of the deposited data

How the results depend on the processing

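Pou5f1, Nanog, Lin28a, Lin28b, Tdgf1, Tfcp2l1, Utf1 and Dppa5a kept their direction and stayed past the threshold under all 15 alternatives, with log2 fold changes from 2.27 to 2.71, 1.39 to 1.79, 2.24 to 2.68, 0.24 to 0.63, 2.89 to 3.33, 0.77 to 1.18, 1.00 to 1.46 and -2.54 to -2.09, in that order. Sox2 lost its call with library sizes alone, without passage 3 replicate 2, without passage 3 replicate 3 and at the threshold of 0.01, and Esrrb turned to -0.0074 with library sizes alone. That setting also left 3528 genes higher, against 5604. The naive list had 2 genes lower, but 1 by DESeq2, at the threshold of 0.01 and without passage 3 replicate 3, passage 20 replicate 1 or passage 20 replicate 2, and 4 with no filter on low counts. With library sizes alone the lists had 40 genes higher and 57 lower, against 58 and 40. Leaving out each library gave 5289 to 6103 genes higher and 7 to 8 members higher. Same-numbered libraries of the passages did not deviate together (correlations 0.014, -0.027 and 0.045). With 3 libraries in a group this cannot exclude that a number stands for a shared culture or colony, and the labels do not say. With a replicate block, 5521 genes were higher and 5582 lower, and 8 members were higher and 1 lower. The member counts were the same without it. Esrrb rests on 101 and 79 counts, and the 95% counting interval of its ratio spans 1.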
